A study of Mus musculus with 6 samples.

Results

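Chn2, Cadps2, Calb2 and Kcnc1 are 4 genes known for their expression in cerebellar granule neurons, and all 4 were found by symbol in each of the tables of nuclei from mouse brain described here. They were chosen by their measured levels in the same tables, with it known that they stood higher in nuclei from formalin-fixed paraffin-embedded (FFPE) tissue than in nuclei from frozen tissue. Their differences between FFPE and frozen material, and their levels in plate nuclei and droplet classes, are therefore descriptions and carry no test. The 4 genes were among 19006 mouse genes of the bulk SCRB-seq table and 23295 of the table that joins FFPE and frozen plate nuclei.

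The nuclei came from 50 µm scrolls of brain from C57BL/6J mice that were 8 to 12 weeks old, and the labels call the tissue cortex. Paraffin was taken out in 1 of 3 ways, by mineral oil with heat, by xylene with heat or by xylene left unheated at room temperature, and frozen tissue served as the comparison. SCRB-seq, which counts the 3′ ends of transcripts, was run on 64 bulk wells, 8 wells of 10 nuclei and 8 wells of 100 nuclei for each of the 3 methods and for frozen tissue. SMART-Seq2, which reads along the whole transcript, was run on 12 bulk wells (1 each of 10, 50 and 100 nuclei for each of the same 4 groups) and on single FFPE and frozen nuclei in plates, and 7031 FFPE nuclei were profiled in droplets. The labels tie no well or nucleus to an animal, so wells may be technical replicates and the spread between them need not hold the spread between mice.

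Granule neurons are the small excitatory neurons of the cerebellar cortex, and they make up most of its cells. Chn2 encodes beta2-chimaerin, a GTPase-activating protein that switches off the small GTPase Rac. Cadps2 primes dense-core vesicles for release and is known for its part in the release of neurotrophins from granule neurons. Calb2 encodes calretinin, a cytosolic calcium buffer, and Kcnc1 encodes Kv3.1, a fast voltage-gated potassium channel that lets neurons fire at high rates.

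In the GENCODE M21 annotation of GRCm38, Chn2 (ENSMUSG00000004633) lies on chromosome 6 from 54039554 to 54301810 on the plus strand, and Cadps2 (ENSMUSG00000017978) on the same chromosome from 23262773 to 23839421 on the minus strand. Calb2 (ENSMUSG00000003657) lies on chromosome 8 from 110137502 to 110168210 on the minus strand, and Kcnc1 (ENSMUSG00000058975) on chromosome 7 from 46396497 to 46438704 on the plus strand. Chn2 and Cadps2 span 262 and 577 kb, of which annotated exons cover 2.22% and 1.66%, whereas exons cover 22.4% of the 42.2 kb of Kcnc1 and 5.68% of the 30.7 kb of Calb2. The sequences below are the 250 bases before RefSeq starts on GRCm38.p6, for the 3 genes matched in promoter windows. They are shown because the 4 genes stood higher together in FFPE material. RefSeq starts need not equal the GENCODE bounds, and the Chn2 windows printed lie inside the GENCODE span of Chn2. Chn2 had 4 annotated starts, of which the first and the second are printed, at chr6:54039682-54039931 and chr6:54264608-54264857 on the plus strand. The window of Cadps2 is chr6:23839422-23839671 on the minus strand and that of Kcnc1 is chr7:46396218-46396467 on the plus strand. Capitals mark the dinucleotide CG, which reads the same on both strands.
Chn2, first start: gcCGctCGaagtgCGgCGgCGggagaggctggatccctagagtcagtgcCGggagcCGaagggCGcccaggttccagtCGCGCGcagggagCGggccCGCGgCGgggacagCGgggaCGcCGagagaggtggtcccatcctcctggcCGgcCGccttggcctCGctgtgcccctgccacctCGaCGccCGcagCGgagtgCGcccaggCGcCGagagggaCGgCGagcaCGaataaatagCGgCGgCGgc
Chn2, second start: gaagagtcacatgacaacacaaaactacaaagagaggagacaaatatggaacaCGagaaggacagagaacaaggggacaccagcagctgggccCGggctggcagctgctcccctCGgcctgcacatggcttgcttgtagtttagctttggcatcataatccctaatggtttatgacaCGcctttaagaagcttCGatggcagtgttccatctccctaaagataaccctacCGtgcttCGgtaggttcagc
Cadps2: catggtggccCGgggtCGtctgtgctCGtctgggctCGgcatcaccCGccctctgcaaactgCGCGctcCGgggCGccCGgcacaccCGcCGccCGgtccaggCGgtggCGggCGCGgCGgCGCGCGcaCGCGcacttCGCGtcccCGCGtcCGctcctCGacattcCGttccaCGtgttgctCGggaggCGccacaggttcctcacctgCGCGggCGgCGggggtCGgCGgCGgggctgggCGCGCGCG
Kcnc1: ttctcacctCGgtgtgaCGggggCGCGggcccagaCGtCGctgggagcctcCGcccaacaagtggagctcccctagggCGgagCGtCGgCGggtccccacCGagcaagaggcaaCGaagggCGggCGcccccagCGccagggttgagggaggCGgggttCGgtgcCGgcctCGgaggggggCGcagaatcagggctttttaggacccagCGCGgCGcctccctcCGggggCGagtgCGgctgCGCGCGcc

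The windows of Cadps2, Kcnc1 and the first start of Chn2 held more CG than most. There were 34 for the first start of Chn2, 44 for Cadps2 and 30 for Kcnc1, beside a median of 6 over 32851 such windows. Windows with at least as many CG made up 3.53%, 0.539% and 5.94% of all windows. The other starts of Chn2 had 7, 2 and 4. The counts are summed per gene, so they do not say which start of Chn2 was read.

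Libraries differed in depth and in the markers they held. SCRB-seq wells held 7512 to 167144 mouse counts, and the lowest totals were those of wells of 10 nuclei treated with mineral oil. SMART-Seq2 wells held 270363 to 942966 counts, and no well or plate nucleus repeated the counts of another in its own table. Of 9 marker genes of cerebellar granule neurons, 8 were measured, and their summed level ran from 307 to 6115 counts scaled to a library of 1e6 (CPM) in FFPE wells of SCRB-seq and from 0 to 101 CPM in frozen wells, with Gabra6 and Cbln3 at 0 there. In SMART-Seq2 the same sum ran from 1511 to 3927 CPM in FFPE wells and from 48.1 to 144 CPM in frozen wells, where Gabra6, Cbln1, Cbln3, Zic1 and Pax6 were at 0. The summed level of 8 markers of cortical excitatory neurons ran the other way, from 192 to 1312 CPM in FFPE and from 1152 to 2215 CPM in frozen wells of SCRB-seq, and from 128 to 787 against 1590.5 to 2602 CPM in SMART-Seq2. Lists for other cerebellar neurons did not stand higher in FFPE throughout. The median summed level of 4 Purkinje markers was 31.6 CPM in FFPE against 105 CPM in frozen wells of SCRB-seq and 7.65 against 37.0 CPM in SMART-Seq2, and that of 6 cerebellar interneuron markers was 265 against 299 CPM and 59.1 against 566 CPM. For 3 unipolar brush cell markers it was 311 against 938 CPM in SCRB-seq and 735 against 311 CPM in SMART-Seq2. Oligodendrocyte markers (5 genes) stood higher in FFPE, with medians of 1142 against 362 CPM and 1299 against 118 CPM. So did 3 Bergmann glia markers (494 against 146 CPM and 394.5 against 37.0 CPM), 4 astrocyte markers (915 against 436 CPM and 1207 against 514 CPM) and 7 cortical inhibitory markers (299 against 207 CPM and 393 against 146 CPM). Reads counted to human genes in SCRB-seq also differed, with 104091, 145907 and 150072 counts beside 683589, 1127248 and 1165844 mouse counts after mineral oil, heated xylene and room-temperature xylene, against 22589 beside 1065514 in frozen wells. The FFPE wells labelled cortex thus held the markers of cerebellar granule neurons. The region of brain that was sampled may differ between FFPE and frozen tissue, and region, number of granule neurons and RNA per granule neuron cannot be told apart in bulk wells. The part of these differences in the results below was not tested.

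Chn2 was low in every frozen well and high in most FFPE wells of the SCRB-seq plate. Among 8 frozen wells of 10 nuclei the lowest, the median and the highest level of Chn2 were 0, 0 and 79.7 CPM, and among 8 frozen wells of 100 nuclei they were 15.3, 55.5 and 136 CPM. In wells of 100 nuclei they were 508, 834 and 1478 CPM after room-temperature xylene, 431, 586 and 886 CPM after heated xylene, and 739.8, 1233 and 1585 CPM after mineral oil. All 24 FFPE wells of 100 nuclei lay above all 16 frozen wells, though the share of all genes with that order was not computed. In wells of 10 nuclei Chn2 stood at 193, 729.5 and 1521 CPM after room-temperature xylene and at 187, 389.7 and 2590.4 CPM after heated xylene. Mineral oil wells of 10 nuclei stood at 0, 24.3 and 2396 CPM, with 4 of 8 wells at 0. In all, 41 of 48 FFPE wells lay above the highest frozen well, and Chn2 was 4.01 higher on the log2 scale in FFPE than in frozen wells (SE 0.46). With DESeq2's size factors, which moved the median of all genes from 0.00 to -0.58, it was 3.48 higher.

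Calb2 was all but missing from the frozen wells. Its counts summed to 2 over the 16 frozen wells of SCRB-seq, 14 of which were at 0, and to 534 over the 48 FFPE wells. Its pooled level in FFPE was 95.6 times that in frozen wells, with a 95% counting interval of 26.3 to 791. In wells of 100 nuclei the lowest, median and highest levels of Calb2 were 47.1, 137 and 215 CPM after room-temperature xylene, 87.4, 168 and 380.5 CPM after heated xylene, and 155, 284 and 512 CPM after mineral oil. In wells of 10 nuclei they were 18.3, 66.2 and 354 CPM, 69.1, 129.6 and 484 CPM, and 0, 0 and 306 CPM in the same order. The FFPE wells above every frozen well numbered 42 of 48, and the other 6 were mineral oil wells of 10 nuclei at 0.

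Cadps2 and Kcnc1 had counts in frozen wells too, and their groups overlapped. The lowest, median and highest levels of Cadps2 were 53.1, 155 and 464 CPM in frozen wells of 10 nuclei and 234, 340.0 and 425 CPM in those of 100 nuclei. In FFPE wells of 100 nuclei they were 280.3, 468 and 744 CPM after room-temperature xylene, 523, 793 and 1165 CPM after heated xylene, and 293, 474 and 1076 CPM after mineral oil. In FFPE wells of 10 nuclei they were 86.9, 303 and 1115 CPM, 202, 375 and 959 CPM, and 0, 91.5 and 998 CPM in the same order. Cadps2 lay above the highest frozen well in 23 of 48 FFPE wells and was 0.83 higher on the log2 scale (SE 0.30), or 0.26 higher with DESeq2's size factors.

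Kcnc1 stood at 0, 99.0 and 266 CPM in frozen wells of 10 nuclei and at 34.3, 89.0 and 186 CPM in those of 100 nuclei. In FFPE wells of 100 nuclei it stood at 169, 280.0 and 438 CPM after room-temperature xylene, 70.6, 164 and 349 CPM after heated xylene, and 155, 416.5 and 915 CPM after mineral oil. In FFPE wells of 10 nuclei it stood at 72.2, 111 and 721 CPM, 0, 31.3 and 553 CPM, and 0, 87.3 and 2064 CPM in the same order. Kcnc1 lay above the highest frozen well in 17 of 48 FFPE wells and was 1.06 higher on the log2 scale (SE 0.39), or 0.51 higher with DESeq2's size factors. Over all 1478 genes fitted, 58% passed an edgeR adjusted p of 0.05 between FFPE and frozen wells, and in 1.29% every FFPE well lay above every frozen well, which held for 0 of the 4 genes. How many of all genes match the counts of FFPE wells above every frozen well given for each gene was not worked out.

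**Figure D1:**
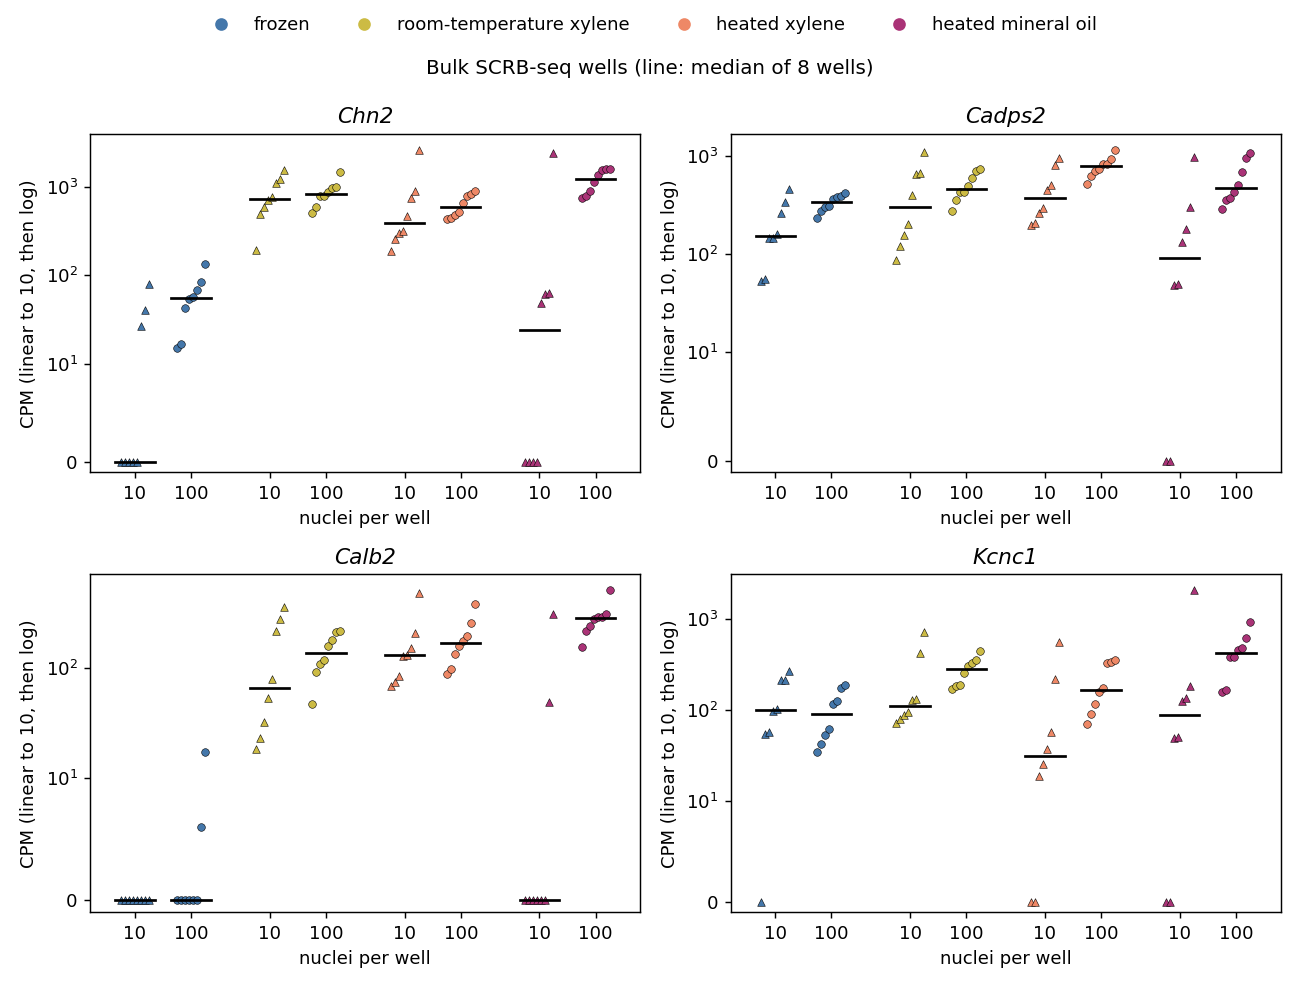
Level of each of the 4 genes in the 64 bulk SCRB-seq wells, in CPM on an axis that is linear up to 10 and logarithmic above, by method and by number of nuclei per well (triangles, 10; circles, 100); the line is the median of 8 wells. Calb2 is at 0 in 14 of 16 frozen wells and Chn2 reaches at most 136 CPM there, while Cadps2 and Kcnc1 overlap between frozen and FFPE wells.

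The SMART-Seq2 wells gave the same order for Chn2, Calb2 and Kcnc1 with no overlap. The frozen wells of 100, 50 and 10 nuclei held Chn2 at 75.0, 77.7 and 83.0 CPM. In the same order of nuclei it stood at 1172, 1882 and 3045 CPM after room-temperature xylene, at 1814, 1986 and 964 CPM after heated xylene, and at 3108, 2039 and 3155 CPM after mineral oil. Every FFPE well lay more than 10-fold above every frozen well, and the fitted difference was 4.47 on the log2 scale (SE 0.43).

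Calb2 had 2 counts in the frozen well of 100 nuclei (4.29 CPM) and 0 in the other two. It stood at 10.2, 22.9 and 32.5 CPM in wells of 100, 50 and 10 nuclei after room-temperature xylene, at 67.7, 40.8 and 9.54 CPM after heated xylene, and at 88.8, 26.0 and 46.8 CPM after mineral oil. The highest level of Calb2 came from 66 counts and the lowest FFPE level from 9, so the precision is that of few counts. The pooled FFPE level was 32.1 times the frozen one, with a 95% counting interval of 8.79 to 267, and without the frozen well of 100 nuclei both other frozen wells were at 0.

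Kcnc1 stood at 34.3, 88.8 and 99.9 CPM in frozen wells of 100, 50 and 10 nuclei. It stood at 165, 247 and 798 CPM after room-temperature xylene, at 284, 169.6 and 106 CPM after heated xylene, and at 366, 312 and 178 CPM after mineral oil. The lowest FFPE well lay just above the highest frozen well, and the fitted difference was 1.66 (SE 0.63). Cadps2 was the gene whose groups overlapped. It stood at 536, 259 and 226 CPM in frozen wells, at 611.5, 909 and 731 CPM after room-temperature xylene, at 839.8, 675 and 472 CPM after heated xylene, and at 1537, 1109.5 and 1611.5 CPM after mineral oil. One FFPE well, heated xylene with 10 nuclei, lay below the frozen well of 100 nuclei. The fitted difference of Cadps2 was 1.12 (SE 0.39) and 1.76 without that frozen well. Of 9092 genes fitted, 4.09% passed an edgeR adjusted p of 0.05, and 3.72% had every FFPE well above every frozen well.

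**Figure D2:**
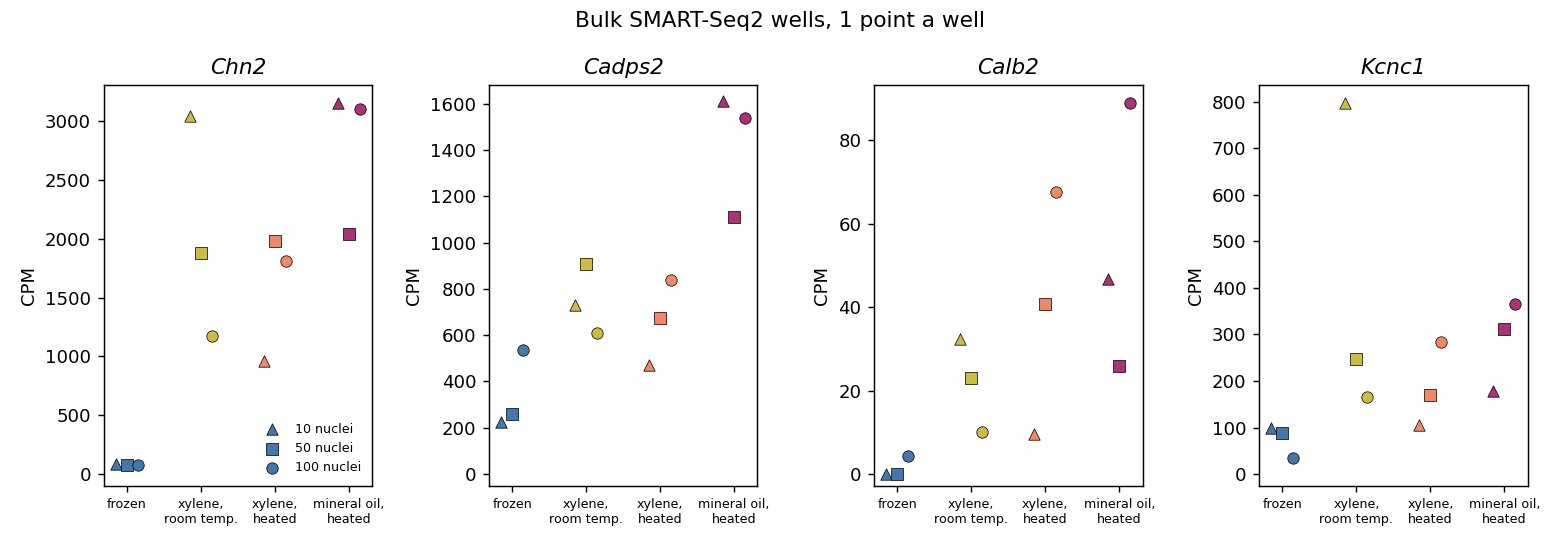
Level of each of the 4 genes in the 12 bulk SMART-Seq2 wells, in CPM, 1 point a well, by method and number of nuclei. Chn2 is between 964 and 3155 CPM in the 9 FFPE wells and between 75.0 and 83.0 CPM in the 3 frozen wells. Cadps2 is highest in the 3 mineral oil wells, though edgeR called no gene between methods.

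The 3 paraffin removal methods were compared with each other, a contrast that did not choose the genes. In SCRB-seq, 0 of the 4 genes differed between any pair of methods in the quasi-likelihood test of edgeR, adjusted by Benjamini-Hochberg over 1080 genes, of which 8.52% were called between mineral oil and heated xylene, 10.3% between mineral oil and room-temperature xylene and 1.94% between heated and room-temperature xylene. DESeq2's Wald test also called 0 of 4 in each pair, beside 8.89%, 13.3% and 3.33% of all genes in the same order. At an unadjusted edgeR p of 0.05, 257, 249 and 176 of the 1080 genes passed. Of the 4 genes Kcnc1 alone did, between mineral oil and heated xylene. The difference of Kcnc1 there was 1.23 on the log2 scale (SE 0.49, edgeR adjusted p = 0.101). The differences of Chn2 were 0.15 (SE 0.43) between mineral oil and heated xylene and -0.24 (SE 0.43) between mineral oil and room-temperature xylene, so intervals of -0.70 to 0.99 and -1.08 to 0.61 remain. Those of Calb2 were 0.04 (SE 0.41) and 0.41 (SE 0.43), and those of Cadps2 -0.63 (SE 0.36) and -0.21 (SE 0.37).

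Among wells of 100 nuclei alone, mineral oil stood above heated xylene for Chn2 by 0.93 (edgeR adjusted p = 0.00938) and for Kcnc1 by 1.13 (edgeR adjusted p = 0.0335), where 13.1% of 1953 genes were called. Over the settings tried, the adjusted p of that pair ran from 0.00938 to 1 for Chn2 and from 0.0335 to 0.162 for Kcnc1. Among wells of 10 nuclei, the difference of Chn2 was -1.78 (edgeR adjusted p = 0.146).

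In SMART-Seq2 the same pairs gave 0 calls among the 4 genes and 0 calls among 8372 genes (0%) in each pair by edgeR. DESeq2's Wald test called 16, 20 and 1 genes between mineral oil and heated xylene, mineral oil and room-temperature xylene, and the xylene methods, and 0 of the 4 genes. At an unadjusted p of 0.05 edgeR passed 314, 379 and 199 genes. Chn2 and Cadps2 were among the first of these and Cadps2 among the second. The difference of Cadps2 was 1.10 between mineral oil and heated xylene (SE 0.42, edgeR adjusted p = 0.9997) and 1.00 between mineral oil and room-temperature xylene (SE 0.42, edgeR adjusted p = 0.9997). Its 3 mineral oil wells lay above all 6 xylene wells, but how many of all genes show this order was not counted. With SCRB-seq the sign of the fitted difference of Cadps2 was the opposite for both pairs (-0.63 and -0.21), but the second was 0.28 in SCRB-seq wells of 100 nuclei alone.

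Over the 3 FFPE methods together, the log2 difference between wells of 10 and wells of 100 nuclei was -0.49 for Chn2 (SE 0.36), -0.64 for Cadps2 (SE 0.29), -0.60 for Calb2 (SE 0.36) and -0.52 for Kcnc1 (SE 0.39). By edgeR's adjusted p 0 of 4 passed, with a lowest value of 0.0761 for Cadps2, while 36.6% of 1353 genes were called. At an unadjusted edgeR p of 0.05 Cadps2 alone of the 4 passed, beside 612 of the 1353 genes. The median of all genes was -0.25. With DESeq2's size factors, or in its Wald test, all 4 genes were called lower in wells of 10 nuclei, while 52.5% and 58.5% of all genes were called and the median of all genes moved to -0.70 and -0.71. Without the mineral oil wells Chn2 stood at 0.19, Calb2 at 0.01, Cadps2 at -0.36 and Kcnc1 at -0.49.

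For Chn2 and Calb2, as for many of the genes fitted, the difference between mineral oil and xylene itself depended on the number of nuclei. For Chn2, the log2 difference between mineral oil and heated xylene was 2.92 lower in wells of 10 than in wells of 100 nuclei (log2 value -2.92, SE 0.80, edgeR adjusted p = 0.00343), and against room-temperature xylene it was lower by 2.95 (log2 value -2.95, SE 0.80, edgeR adjusted p = 0.00315). For Calb2 the values were -2.84 (SE 0.87, edgeR adjusted p = 0.00828) and -3.07 (SE 0.88, edgeR adjusted p = 0.00501). For Cadps2 the second was -1.70 (SE 0.70, edgeR adjusted p = 0.048), which no longer passed with DESeq2's size factors, with no filter on low counts or in the Wald test (adjusted p of 0.116, 0.0598 and 0.0895). Kcnc1 was not called in either. The same term was called for 34.7% and 38.7% of 1979 genes, with medians of -1.09 and -1.22 over all genes. Relative to the median for heated xylene, Chn2 stood at -1.83 and Calb2 at -1.75. Mineral oil wells of 10 nuclei were also the shallowest, so depth and method cannot be told apart. The labels do not say whether wells of the same method and number of nuclei shared a pool, which could not be told apart either.

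Of the close relatives of the 4 genes, Cadps fell in SCRB-seq and Chn1 in SMART-Seq2. Of the relatives described here, Chn1, Cadps, Calb1, Kcnc2 and Kcnc4 could be fitted between FFPE and frozen wells of SMART-Seq2, and Cadps in SCRB-seq as well, while Pvalb could be fitted in neither. Cadps, which like Cadps2 primes dense-core vesicles, was lower in FFPE wells of SCRB-seq (log2 value -1.73, SE 0.30, edgeR adjusted p = 7.09e-07) and -0.81 in SMART-Seq2 (SE 0.34, edgeR adjusted p = 0.232). Chn1, which encodes alpha-chimaerin, stood at -3.39 in SMART-Seq2 (SE 0.81, edgeR adjusted p = 0.0148), and the adjusted p rose to 0.0913, 0.0924 and 0.0675 when the frozen well of 100, 50 or 10 nuclei was left out. Kcnc2, a relative of Kcnc1, stood at -2.19 (SE 0.74, edgeR adjusted p = 0.113), which passed without the room-temperature xylene well of 50 or of 10 nuclei (0.02 and 0.0485). Calb1 and Kcnc4 stood at -2.54 (edgeR adjusted p = 0.495) and -0.01 (edgeR adjusted p = 0.998). Cadps was also lower after mineral oil than after heated xylene in SCRB-seq (log2 value -1.60, SE 0.49, edgeR adjusted p = 0.026) and than after room-temperature xylene (-1.64, SE 0.49, edgeR adjusted p = 0.0195).

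Other genes of the same pathways were taken from lists made with earlier results of these data known. Of 16 other granule neuron genes, 12 were fitted between FFPE and frozen wells in SCRB-seq, of which 9 rose and 0 fell, where 58% of all genes were called in either direction, with a median of 3.24 beside 0.00 over all genes. In SMART-Seq2, where 4.09% of all genes were called, 11 of 14 rose and 0 fell, with a median of 4.84 beside -0.13, or 4.36 with the 5 genes that were at 0 in every frozen well set against the floor of 3 counts over those wells. These tallies describe a list made with this contrast known, and the genes at 0 in every frozen well, 2 in SCRB-seq and 5 in SMART-Seq2, passed the filter through FFPE wells alone, so the tallies are no evidence of direction. Gabra6, a granule neuron GABA receptor subunit, was at 0 in every frozen well and was at least 108-fold higher in FFPE wells of SCRB-seq and at least 177-fold higher in those of SMART-Seq2, against the same floor. Cbln3, a secreted synaptic organiser, was at least 106-fold higher in the former and, in the latter, at least 244-fold higher. Between methods in SCRB-seq, 1 of 12 fitted rose after mineral oil relative to heated xylene and 2 of 12 relative to room-temperature xylene, beside 8.52% and 10.3% of all genes called, and 1 of 12 was called lower after heated than after room-temperature xylene (Grin2c, -2.25), beside 1.94%. The first was Grin2c, an NMDA receptor subunit (1.76, SE 0.57, edgeR adjusted p = 0.04), and those relative to room-temperature xylene were Cbln3 (1.87, SE 0.47, edgeR adjusted p = 0.00575) and Gabra6 (1.01, SE 0.34, edgeR adjusted p = 0.0425). The term by which the difference from room-temperature xylene depended on the number of nuclei was called lower for 7 of 13 and higher for 1 (Cbln3), with a median of -1.97 beside -1.22 over all genes, of which 38.7% were called. Against heated xylene it was called lower for 5 of 13 and higher for 0, with a median of -1.63 beside -1.09 over all genes, of which 34.7% were called.

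Of 11 other dense-core vesicle genes, 5 were fitted in SCRB-seq, of which 3 fell in FFPE wells and 0 rose, with a median of -0.92, and the share called was close to the 58% over all genes. In SMART-Seq2, 2 of 10 fell and 0 rose, where 4.09% of all genes were called, with a median of -1.02 beside -0.13. The genes that fell in SCRB-seq were Cadps, Ptprn (-1.47, SE 0.25) and Ptprn2 (-0.92, SE 0.27), and the last 2 encode membrane proteins of dense-core vesicles. In SMART-Seq2 they were Stx1a, a plasma membrane SNARE protein (-5.66, SE 1.06), and Ptprn2 (-1.63, SE 0.37). Between methods in SCRB-seq, 2 of 4 fitted dense-core vesicle genes, Cadps and Ptprn, were lower after mineral oil than after heated xylene (8.52% of all genes called) and than after room-temperature xylene (10.3% called), with medians of -0.99 and -1.03. Ptprn stood at -3.52 and -2.97 there (edgeR adjusted p = 1.66e-08 and 8.24e-07). Of 10 other chimaerin and Rac genes, 2 of 3 fitted rose in SCRB-seq and 0 fell, also close to the 58% over all genes, namely Dgkb, a diacylglycerol kinase (2.94, SE 0.24), and Tiam1, an exchange factor that activates Rac (1.09, SE 0.44). In SMART-Seq2, 1 of 9 fell, which was Chn1, beside 4.09% of all genes called.

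Single FFPE nuclei in plates held the 4 genes as well, across both batches that gave nuclei. Batch 1 had 98 nuclei and batch 2 had 134, and the table that joins FFPE with frozen nuclei holds the same 134 with identical counts, 9 further FFPE nuclei and 137 frozen nuclei. In the authors' annotation of that table a column headed brain reads L for FFPE and R for frozen nuclei, so this source and the fixation cannot be told apart. The 9 further nuclei held up to 4973791 counts, against at most 431562 in batch 2, and 1 nucleus held 36.6% of the Chn2 counts of the 143 FFPE nuclei, so levels are given by batch and plate.

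Chn2 stood at 1852 and 1942 CPM in the pooled counts of the 2 plates of batch 1 and at 1420.0 and 1020.3 CPM in those of batch 2, against 274.5 and 310.2 CPM in the 2 frozen plates. It had a count in 66.3% of nuclei of batch 1 (exact 95% interval 56.1 to 75.6), in 91.8% of batch 2 (85.8 to 95.8) and in 53.3% of frozen nuclei (44.6 to 61.9). Frozen nuclei were deeper, with a median of 255329 counts against 180584 in batch 1 and 42747 in batch 2. After thinning to 10000 counts, which left out the shallower nuclei and kept 90 of 98 in batch 1, 126 of 134 in batch 2 and 127 of 137 frozen, the expected shares with a Chn2 count were 59.8% and 82.2% in the FFPE batches and 27.5% in frozen nuclei. In 3 plates 1 nucleus held most of the Chn2 counts, with 76.4% in plate MB17 of batch 1, 75.6% in frozen plate 1 and 59.9% in frozen plate 2. Without the nucleus with the most Chn2 counts, an alternative added after seeing the data, Chn2 stood at 491 and 1761 CPM in batch 1, at 1264 and 869 CPM in batch 2 and at 69.7 and 129 CPM in the frozen plates.

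Cadps2 stood at 426 and 585 CPM in batch 1, at 421 and 433.5 CPM in batch 2 and at 107 and 149 CPM in the frozen plates, and the first value was 260.4 CPM without the nucleus with the most Cadps2 counts. Shares of nuclei with a Cadps2 count, 66.3%, 76.9% and 59.9% for batch 1, batch 2 and frozen nuclei, had overlapping intervals between batch 1 and frozen nuclei, and after thinning they were 45.6%, 55.6% and 30.5%. Kcnc1 varied widely between plates. It stood at 12.0 and 192 CPM in batch 1, at 228 and 260.2 CPM in batch 2 and at 107 and 136 CPM in the frozen plates, so 1 of 4 FFPE plates lay below both frozen plates. Without the nucleus with the most Kcnc1 counts the first of these was 5.22 CPM, the second plate of batch 2 stood at 168 CPM and the frozen plates at 61.7 and 87.2 CPM. Shares with a Kcnc1 count were 36.7%, 58.2% and 57.7%, and after thinning 22.0%, 38.7% and 29.4%.

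Calb2 was detected in a minority of single nuclei of every kind. Batch 1 gave 0 counts in the 28 nuclei of plate MB17, the shallower plate (median 65894 counts, against 215763 in MB18). This allows detection in up to 12.3% of such nuclei (exact 95% interval) and sets no limit on nuclei with undetected Calb2. Plate MB18 gave 60.2 CPM, while batch 2 gave 20.2 and 21.9 CPM and the frozen plates 1.03 and 1.41 CPM. Single nuclei weighed on these levels, since without the nucleus with the most Calb2 counts MB18 stood at 37.8 CPM, the first plate of batch 2 at 12.8 CPM and frozen plate 2 at 0.84 CPM. A Calb2 count was found in 9.18%, 21.6% and 13.9% of nuclei of batch 1, batch 2 and the frozen plates, and the thinned shares were 5.59%, 11.2% and 1.13%. Of the FFPE nuclei of batch 2, 19 of 134 had counts of all 4 genes and 4 had none, against 14 and 23 of 137 frozen nuclei and 4 and 14 of 98 nuclei of batch 1.

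**Figure D3:**
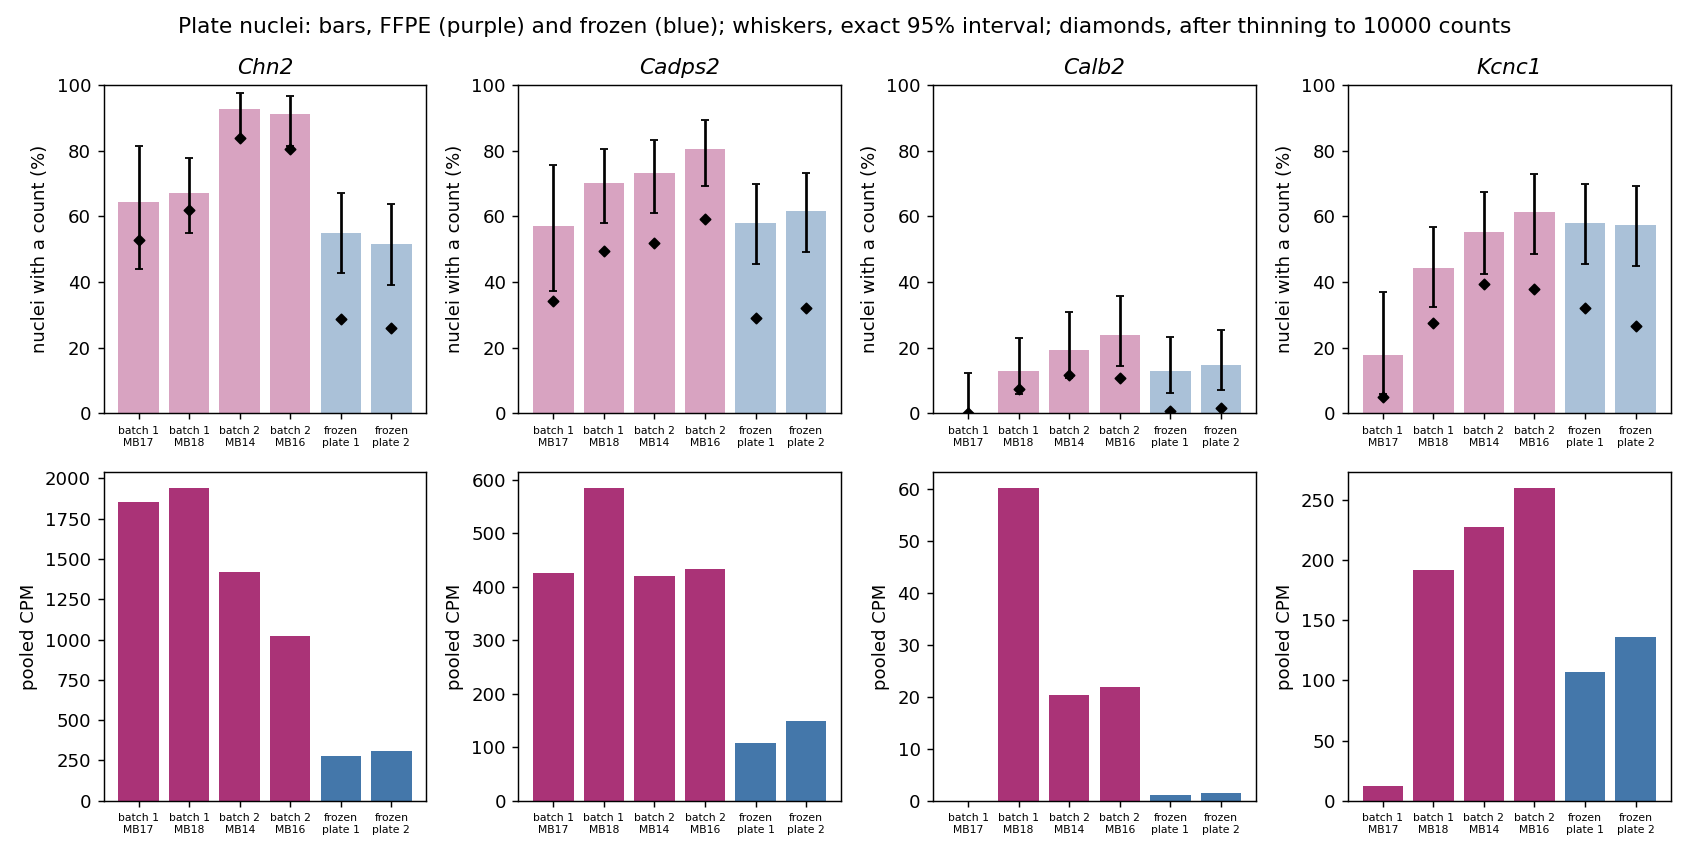
Plate nuclei by plate: the upper row gives the percent of nuclei with at least 1 count (bars, with exact 95% intervals) and after thinning to 10000 counts (diamonds), and the lower row the pooled CPM. Chn2 and Cadps2 are higher in each of the 4 FFPE plates than in both frozen plates by pooled CPM, while Kcnc1 in plate MB17 is below both.

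Split by counts of Gabra6, a division made after the data were seen, nuclei with Gabra6 had the higher pooled level of Chn2 in batch 1 but not in batch 2. The 32 nuclei of batch 1 with a Gabra6 count held Chn2 at 3701 CPM and the 66 without at 798 CPM, or 455 CPM without the 1 nucleus that gave 44.6% of the latter's counts. In batch 2 the 49 nuclei with a Gabra6 count held it at 1099 CPM and the 85 without at 1322 CPM. Kcnc1 stood at 387 and 21.8 CPM with and without Gabra6 in batch 1 and at 313 and 178 CPM in batch 2, and Cadps2 at 1044 and 252 CPM and at 412 and 442 CPM. Among nuclei of batch 1 with no Gabra6 count, 1 nucleus held 62.4% of the Cadps2 counts and 1 held 46.3% of the Kcnc1 counts, and without that nucleus the level was 97.1 CPM for Cadps2 and 12.0 CPM for Kcnc1. Calb2 stood at 106 and 15.7 CPM in batch 1, or 58.8 and 2.59 CPM without the nucleus with the most Calb2 counts, and at 27.6 and 14.8 CPM in batch 2. The share of nuclei with a count was larger with Gabra6 than without in both batches, at 100% and 50% in batch 1 and 98.0% and 88.2% in batch 2 for Chn2, and at 87.5% and 56.1% and 91.8% and 68.2% for Cadps2. Nuclei with a Gabra6 count were deeper in both batches, with medians of 224451 against 165138 counts and 61827 against 40870 counts. In frozen nuclei, where Gabra6 summed to 2 counts, the 61 nuclei with more Gad1 and Gad2 than Slc17a7 counts held Chn2 at 566 CPM and the 39 with more Slc17a7 at 31.1 CPM, yet 62.3% and 64.1% of them had a count, and 1 nucleus gave 37.3% of the counts of the former, which stood at 369 CPM without it. Gad1 and Gad2 make GABA in inhibitory neurons and Slc17a7 loads glutamate in excitatory ones. Cadps2 ran the other way in those nuclei, at 44.6 and 217 CPM.

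In the droplet library, Chn2 and Cadps2 were both highest in the authors' class ExNeuron3, the class with the highest summed level of the 8 granule neuron markers (2235 CPM, against 808 to 1660 CPM in the other 11). The library is 1 sample, its 7031 barcodes were all different, and its classes held a median of 285 to 396 UMIs per nucleus, so intervals cover counting error alone. No doublet caller was run here, and the sources used here do not say how doublets were treated. Chn2 stood at 1429 CPM in ExNeuron3 (557 UMIs, exact Poisson interval 1313 to 1553), followed by 1099 CPM in ExNeuron2, and was lowest in Astrocyte (436 CPM) and Fibroblast (252 CPM, 5 UMIs). Cadps2 stood at 990.4 CPM in ExNeuron3 (894 to 1094), at 772 CPM in ExNeuron2 and at 295 CPM in Astrocyte. For both genes the interval of ExNeuron3 lay above those of all 11 other classes. The share of all genes for which this holds was not computed, so it does not set them apart.

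Chn2 and Cadps2 were also found in classes of cells that are not neurons, and where those UMIs came from was not tested. A UMI of Chn2 was present in 35.6% of ExNeuron3 nuclei and in 18.8% of Oligodendrocyte nuclei, and thinned to 300 UMIs, which kept the deeper 727 of 1105 and 180 of 298 nuclei, in 33.9% and 18.4%. Cadps2 was present in 28.9% and 14.1%, thinned 26.2% and 12.5%. The level in ExNeuron3 was 2.16 times that in Oligodendrocyte for Chn2 and 2.20 times for Cadps2. In 3 other classes of cells that are not neurons Chn2 stood above its level in Oligodendrocyte (662 CPM), at 993 CPM in OPC, 972 CPM in Endothelial and 887 CPM in Microglia, with a UMI of it in 27.0%, 27.6% and 20.4% of their nuclei, though the intervals of all 3 levels overlapped that of Oligodendrocyte. Thinned, those shares were 26.4%, 28.6% and 7.80%, the last over 37 of 93 nuclei, so Microglia lay above Oligodendrocyte by level and below it by the thinned share and cannot be ordered against it. Cadps2 stood at 457, 565 and 512 CPM in the same 3 classes, beside 451 CPM in Oligodendrocyte. Gabra6, too, ran from 107 CPM in Astrocyte to 364 CPM in ExNeuron3.

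Calb2 and Kcnc1 gave few UMIs and less separation between classes. Calb2 was highest in Microglia (375.5 CPM from 11 UMIs, interval 187 to 672) and stood at 182 CPM in ExNeuron3 (142 to 230), with an interval that overlapped that of every other class. Kcnc1 stood at 247 CPM in Endothelial, 246 CPM in ExNeuron3 and 245 CPM in ExNeuron4, which cannot be ordered, and 105 CPM in ExNeuron5. The intervals of 3 classes, Astrocyte, ExNeuron1 and ExNeuron5, lay below that of ExNeuron3 for Kcnc1. ExNeuron4 also held the most Kcnc2 (698 CPM) and Gad2 (281 CPM), and ExNeuron6 the most Gad1 (615 CPM, against 288 CPM in ExNeuron4). Both Gad genes mark inhibitory neurons, although the class names say excitatory. Slc17a7, of excitatory neurons, stood at 337 CPM in ExNeuron4, its lowest level of any class, and at 505 CPM in ExNeuron6. Gad2 stood at 135 CPM in ExNeuron6. Which kind of neuron these classes hold was not tested. A UMI of Calb2 or Kcnc1 was present in at most 11.8% and 9.36% of the nuclei of any class, and in 3.02% and 4.36% of Oligodendrocyte nuclei.

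**Figure D4:**
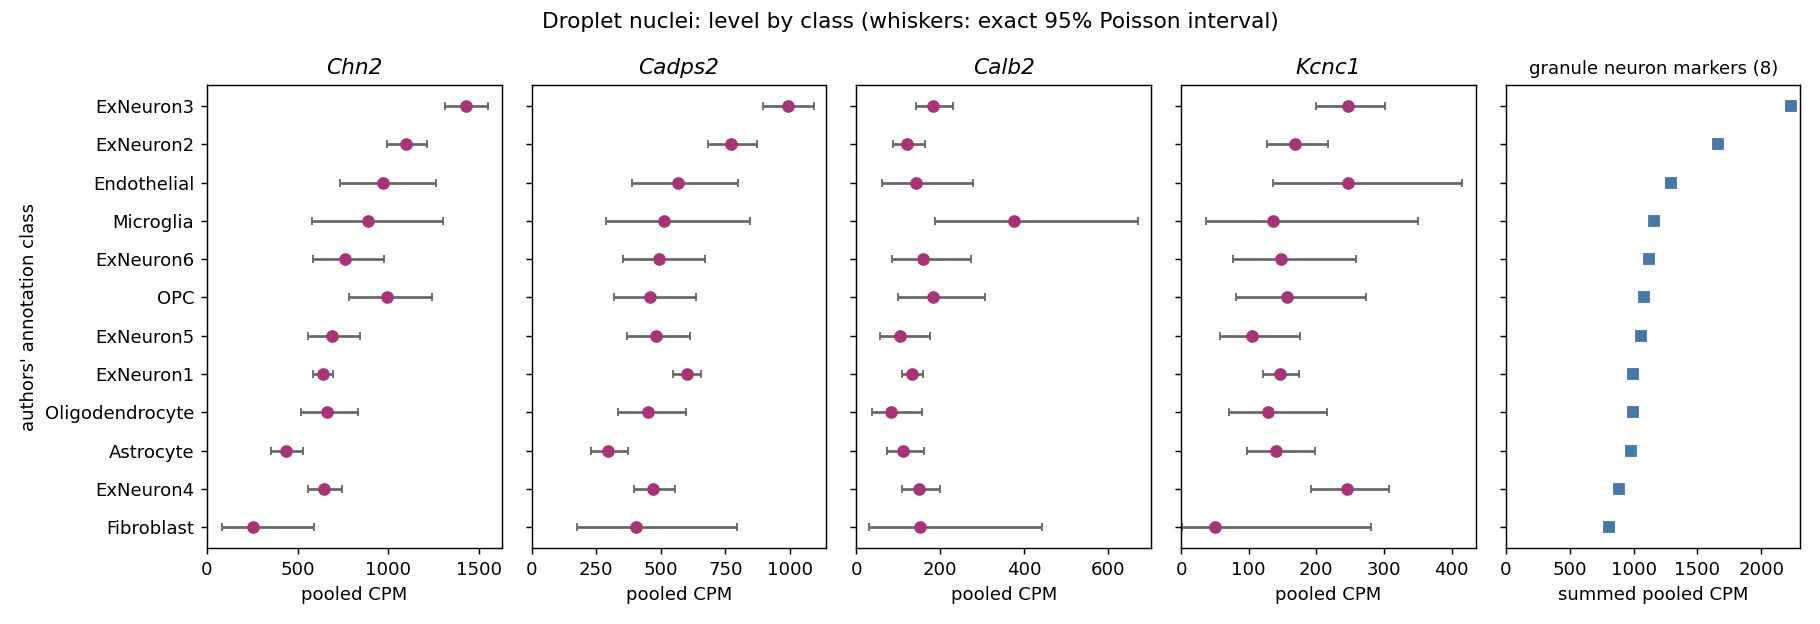
Pooled level of each of the 4 genes in the 12 annotation classes of the droplet nuclei, in CPM with exact 95% Poisson intervals, with classes ordered by the summed level of 8 granule neuron markers (right). Chn2 and Cadps2 are highest in ExNeuron3, at 1429 and 990.4 CPM, and Calb2 and Kcnc1 show wide intervals.

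Genes whose levels across the 12 classes were most like those of each gene were sought among 5107 genes with at least 100 UMIs, by Pearson's r of log2(CPM + 10), as a description over classes of 1 library. For Chn2 they were Galnt13 (r = 0.94), Etv1 (0.93) and Lrp11 (0.91), and for Cadps2 Sphkap (0.94), Fat2 (0.92) and Camk4 (0.91). Etv1 and Fat2 are on the list of granule neuron markers. For Calb2 they included Eml4 (0.90) and Fnip1 (0.89), each with at most 303 UMIs in all, and for Kcnc1 Erc1 (0.91), Chl1 (0.90) and Ank1 (0.90). Between the 4 genes, r was 0.75 for Chn2 and Cadps2, 0.76 for Chn2 and Kcnc1, 0.48 for Cadps2 and Kcnc1 and at most 0.27 for any pair with Calb2.

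Over the 9 FFPE wells of SMART-Seq2, among 3349 genes with a count in each of them, the most like genes were others. For Chn2 they were Olfm3 (0.94), Tmem266 (0.92) and Rbfox3 (0.92), and for Cadps2 Cacna1a (0.95), Cntn6 (0.95) and Syne1 (0.95). For Calb2 they were Ccl25 (0.92), Bptf (0.90) and Fmn1 (0.82), and for Kcnc1 Unk (0.98), Pde9a (0.95) and Nr1d2 (0.95). Rbfox3 encodes the neuronal nuclear antigen NeuN, which marks granule neurons strongly, and Cacna1a encodes a presynaptic calcium channel. Chn2 and Cadps2 had r = 0.79 with each other in these wells and 0.77 and 0.70 with Calb2, while Kcnc1 had r = 0.68 with Chn2, 0.31 with Cadps2 and 0.45 with Calb2.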

How the data were processed

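The authors deposited unnormalized counts for each gene in each well, plate nucleus or droplet nucleus (UMI counts in droplets). The builds mm10 and hg19 come from the submitters' processing notes. The sources used here name no aligner or counter. The human rows that SCRB-seq also lists were not used, and the plate table of batch 3 holds 0 nuclei. Method and number of nuclei came from the authors' annotation, per the file headers.

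The 4 genes and all lists were chosen with earlier results of these data known. Counts were scaled to CPM over mouse genes. Wells were compared with edgeR 4.0.16 (quasi-likelihood test, TMM, filterByExpr, Benjamini-Hochberg over all genes fitted, threshold 0.05), with each SE taken from the F statistic and intervals of 1.96 SE; DESeq2 1.42.0 was an alternative. The fits were tested on simulated data. Shares have Clopper-Pearson and levels Poisson intervals, exact at 95%, which cover counting error only. A thinned share is a hypergeometric expectation. Named genes are the 4 genes, 7 relatives, up to 4 called genes per list and comparison by size, and the 3 most alike genes for each of the 4; some genes that this rule names are not reported here.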

Additional observations from a re-analysis of the deposited data

Results flagged for a closer look

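Of 31 groups of 8 SCRB-seq wells examined gene by gene, 9 had a single well far from the other 7 by Dixon's criterion, which chance alone gives in about 1 of 20 groups of normally distributed values. The rate for low counts with many at 0, as here, was not tested. In mineral oil wells of 10 nuclei, 1 well stood at 2396 CPM for Chn2 (18 counts, median of the others 0), 1 at 998 CPM for Cadps2, 1 at 306 CPM for Calb2 (4 counts) and 1 at 2064 CPM for Kcnc1 (27 counts, median of the others 49.9). In heated xylene wells of 10 nuclei, 1 well stood at 2590.4 CPM for Chn2, 1 at 484 CPM for Calb2 and 1 at 553 CPM for Kcnc1. Among wells of 100 nuclei, 1 mineral oil well stood at 512 CPM for Calb2, and 1 frozen well at 17.2 CPM for Calb2 from 1 count.

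The term for mineral oil against xylene that differs with the number of nuclei was called for Chn2 (-2.92 against heated and -2.95 against room-temperature xylene), Calb2 (-2.84 and -3.07) and Cadps2 (-1.70 against room-temperature xylene) on the log2 scale, from edgeR's test of the difference itself, where 34.7% and 38.7% of 1979 genes were called. The medians of these terms over all genes were -1.09 and -1.22. The call of Cadps2 was lost with DESeq2's size factors, with no filter on low counts and in the Wald test (adjusted p of 0.116, 0.0598 and 0.0895).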

How the results depend on the processing

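Fits of 10 against 100 nuclei within 1 method, and the other settings of the interaction and of the relatives, were added after seeing the data. Of the 4 genes, 0 were called between 10 and 100 nuclei, but 4 with DESeq2 size factors, 4 in its Wald test, 1 without a filter on low counts (Cadps2) and 1 in mineral oil wells alone (Chn2, the 1 gene fitted), where 52.5%, 58.5%, 27.7% and 49.6% of all genes were called, against 36.6%. For FFPE against frozen SCRB-seq wells, the contrast that chose the genes, the count higher was 4 and became 2 in wells of 10 nuclei, 1 with mineral oil and 2 with heated xylene, the number that passed the filter each time, so this count supports nothing. Mineral oil against heated xylene gave 2 calls in wells of 100 nuclei. The other 92 settings of these counts gave the same result.

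Signs turned for values that were not called, and the cause was not tested. Between 10 and 100 nuclei, Chn2 became 0.19 and Calb2 0.014 without mineral oil wells, and Chn2 0.12 in heated and 0.16 in room-temperature xylene alone. In SCRB-seq, mineral oil less heated xylene became -1.78 for Chn2 in wells of 10 nuclei, -0.029 (Chn2) and -0.17 (Calb2) with nuclei number as a covariate and -0.10 for Calb2 unfiltered, and its interaction -0.16 for Kcnc1 unfiltered. Mineral oil less room-temperature xylene became 0.54 (Chn2) and 0.28 (Cadps2) in wells of 100 nuclei, and heated less room-temperature xylene -0.055 for Cadps2 in wells of 10. The interaction of the xylenes became 0.17 and 0.16 for Chn2 with DESeq2 size factors and Wald test. In SMART-Seq2, Kcnc4 between FFPE and frozen became 0.28 without TMM and ran from -0.67 to 0.28 with 1 well left out. With 1 well left out, heated less room-temperature xylene ran from -0.57 to 0.19 for Chn2 and from -0.24 to 0.061 for Cadps2, mineral oil less heated xylene from -0.048 to 1.05 for Calb2, and mineral oil less room-temperature xylene from -0.85 to 0.57 for Kcnc1.

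With SMART-Seq2 wells matched by nuclei number, 0 of the 4 genes were called in each pair of methods. The labels give no replicate numbers, and nothing ties the numbers in SCRB-seq well names to a shared source. Calb2 rests on 2 frozen counts in each bulk assay, which limits its ratios.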
